A study of Homo sapiens with 6 samples.

Results

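Box H/ACA small nucleolar RNAs (SNORA genes) and small Cajal body RNAs (SCARNA genes) were examined in peak lists of RNA crosslinked to the HSP70 chaperones HSPA1A and HSPA8. The members were the RefSeq genes on GRCh38 with a symbol starting SNORA or SCARNA, plus TERC, that shared at least 1 bp with a peak in any of 4 lists. Of 212 such genes, 30 had a peak: 27 of 182 SNORA genes, 3 of 29 SCARNA genes, and not the telomerase RNA gene TERC. A peak in any list was found at 4.9% of all 59716 RefSeq genes and at 6.66% of the 7187 genes that are 100 to 500 bp long. The members were thus selected on the peaks themselves, so these shares and the members' scores are a description, with no test.

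All libraries were made from HEK293 Flp-In T-Rex cells. This established line of human embryonic kidney origin takes an inducible transgene at a defined site. All cells expressed a bait with a 3xFLAG-HBH tag after 1 µg/ml tetracycline, and RNA was crosslinked to the bait by UV-C light in FLASH-seq, a tandem affinity purification followed by sequencing of the bound RNA. The baits used here were HSPA1A, the stress-inducible HSP70, and HSPA8, its constitutive relative, each made in addition to the cell's own protein, with 2 biological replicates per bait. Libraries of a GFP bait were not analysed here, and background binding in a control was therefore not measured. Peak lists hold no RNA levels, so the cell line could not be checked against marker genes, and abundance of an RNA cannot be told apart from its binding.

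The lists held 2744 and 2059 peaks for HSPA1A and 3131 and 2040 for HSPA8, and read depth is unknown. Unplaced scaffolds, which hold no member in the gene table, carried 353 and 617 of the HSPA8 peaks and 0 of the HSPA1A peaks. The lists of the baits thus differ in more than the bait. In every comparison of baits below, the bait cannot be told apart from a difference in how the lists were made. Each peak carries the authors' whole-number score, whose meaning is not stated, so scores of different lists have no known common scale and ranks are given within a list. The median score was 10 and 13 for HSPA1A and 10 and 22 for HSPA8.

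Box H/ACA RNAs fold into a pair of hairpins, each followed by a short single-stranded box, the H box after the first and the ACA box near the 3′ end. With the proteins dyskerin, NHP2, NOP10 and GAR1 they guide the conversion of uridine to pseudouridine, in ribosomal RNA for most SNORA RNAs and in spliceosomal RNA for those held in Cajal bodies. Most human members are cut out of introns of a host gene, often one that encodes a part of the translation machinery. SCARNA genes are named for their place in the nucleus and not for their fold: SCARNA2 is a box C/D RNA, SCARNA10 carries both C/D and H/ACA domains, and SCARNA13 is of the H/ACA kind.

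Sequences were printed where a peak could be read against the bases under it. The reference tables used here held letters inside 2 of the members. SNORA81, in the translation factor gene EIF4A2, overlaps the annotated hairpin of MIR1248 by 102 bases. The hairpin (RefSeq, GRCh38.p14, plus strand, chr3:186786672-186786777) follows with the bases under the HSPA1A replicate 1 peak in capitals, and the mature miRNA with its seed in capitals.
MIR1248 hairpin: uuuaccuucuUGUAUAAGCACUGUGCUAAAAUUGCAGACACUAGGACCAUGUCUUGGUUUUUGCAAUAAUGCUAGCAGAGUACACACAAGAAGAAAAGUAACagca
hsa-miR-1248: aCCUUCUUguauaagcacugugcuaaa
The peak covered 92 of the 106 bases of the hairpin and 20 of the 27 bases of the mature miRNA. The HSPA8 replicate 2 peak on SNORA81 lay beyond the hairpin and covered 0 of its bases. Of 7 annotated SNORA and SCARNA genes that overlap a miRNA hairpin, SNORA81 was the 1 with a peak. In SNORA7A, in the ribosomal protein gene RPL32, bases 16 to 45 of the RNA (GRCh38.p14, minus strand, chr3:12840406-12840435) all lay under the HSPA1A replicate 1 peak.
SNORA7A, 16 to 45: CATCTGGAGAGTGCCTAGTATTCTGCCAGC

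The SNORA family was found mainly in 1 list of each bait. HSPA1A replicate 1 had a peak at 22 SNORA genes and HSPA1A replicate 2 at 3. HSPA8 replicate 1 had one at 2 SNORA genes and HSPA8 replicate 2 at 14. The ranges of the baits overlapped in part, with the high list of each bait above the low list of the other. As shares of the 182 annotated genes these were 12.1%, 1.65%, 1.1% and 7.69%. Over all RefSeq genes a peak was present in the same order at 3.04%, 2.0%, 3.05% and 1.28%, and over genes of 100 to 500 bp at 5.97%, 4.23%, 4.7% and 3.65%. HSPA8 replicate 2, the list with the lowest share over all genes, thus held 14 SNORA genes, and HSPA8 replicate 1, with the highest, held 2.

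SNORA genes with a peak numbered 12.5 ± 13.4 (SD, n = 2) per HSPA1A list. The HSPA8 lists averaged 8.0 ± 8.49 (SD, n = 2). The difference of 4.5 genes did not exceed the spread of the replicates (exact two-sided permutation test over 6 orders of the bait labels, p = 0.667; the smallest p this design allows is 0.33). It turned to -5.0 without HSPA1A replicate 1 and to -1.5 without HSPA8 replicate 1. The labels name nothing that HSPA1A replicate 1 and HSPA8 replicate 2 share. The lists with 22, 3, 2 and 14 SNORA genes held 2744, 2059, 3131 and 2040 peaks, and the part of list length or depth in these counts was not tested.

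SNORD genes, the box C/D family that guides ribose methylation, had the same high lists and the same low lists, though not in the same order. Of 362 SNORD genes, HSPA1A replicates 1 and 2 had a peak at 42 and 19 (11.6% and 5.25%), and HSPA8 replicates 1 and 2 at 19 and 43 (5.25% and 11.9%). In the low lists SNORD genes thus had a peak at 5.25% where SNORA genes had one at 1.65% and 1.1%. The gap between the families was not tested.

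**Figure D1:**
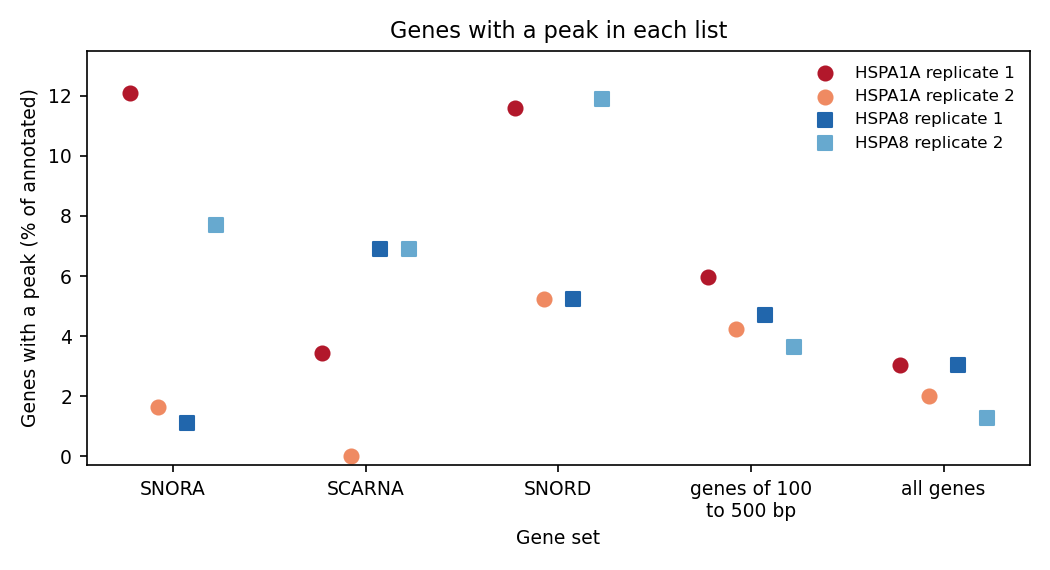
Percentage of annotated genes with a peak (vertical axis) in each of the 4 lists, for SNORA, SCARNA and SNORD genes, genes of 100 to 500 bp and all RefSeq genes; each point is 1 list. HSPA1A replicate 1 and HSPA8 replicate 2 are the 2 high lists for SNORA (12.1% and 7.69%) and for SNORD (11.6% and 11.9%), while over all genes HSPA8 replicate 2 is the lowest at 1.28%.

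SNORA73A and SNORA73B were the only SNORA genes with a peak in all 4 lists, or 1.1% of the 182 annotated. That share was 0.872% over all genes, 2.96% over genes of 100 to 500 bp and 2.21% over SNORD genes. A peak in all 4 lists was thus no more frequent among SNORA genes than among short genes or SNORD genes. Both encode forms of U17, an H/ACA RNA known for its part in cleavage of the ribosomal RNA precursor and not for guiding a modification. They lie on chromosome 1, from 28507365 to 28507571 and from 28508558 to 28508762, inside the non-coding host SNHG3, where the longer RCC1 gene also overlaps. The best score of SNORA73A was 21 and 5 with HSPA1A and 21 and 17 with HSPA8. SNORA73B had 18 and 15 against 14 and 15. Among all peaks of its own list, the best SNORA73A peak stood at percentile 65.9 and 6.82 for HSPA1A and at 63.5 and 44.3 for HSPA8. The best SNORA73B peak stood at 63.8 and 53.6 against 56.6 and 40.7. SNORA73A in HSPA1A replicate 2 thus ranked lowest of these 8. The genes encode near-identical RNAs, so their peaks are uncertain between the copies. Other members also share a number with further annotated genes, SNORA70, SNORA71B and SNORA71D among them. How alike those genes are in sequence was not examined, so their peaks may be uncertain in the same way.

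Along SNORA73A, which is 207 nt long, the peaks of HSPA1A replicate 1 covered bases 47 to 141 and 148 to 207. Those of HSPA1A replicate 2, HSPA8 replicate 1 and HSPA8 replicate 2 covered 90 to 121, 27 to 207 and 97 to 207. Bases 97 to 121 were thus covered in all 4 lists, and 3 lists reached the last base of the RNA. Along SNORA73B, which is 205 nt long, HSPA1A replicate 1 had 3 peaks, over bases 1 to 86, 87 to 142 and 149 to 184. HSPA1A replicate 2 covered 149 to 188, HSPA8 replicate 1 covered 116 to 205, and HSPA8 replicate 2 covered 53 to 117 and 147 to 205. Here bases 149 to 184, towards the 3′ end, were covered in all 4 lists.

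**Figure D2:**
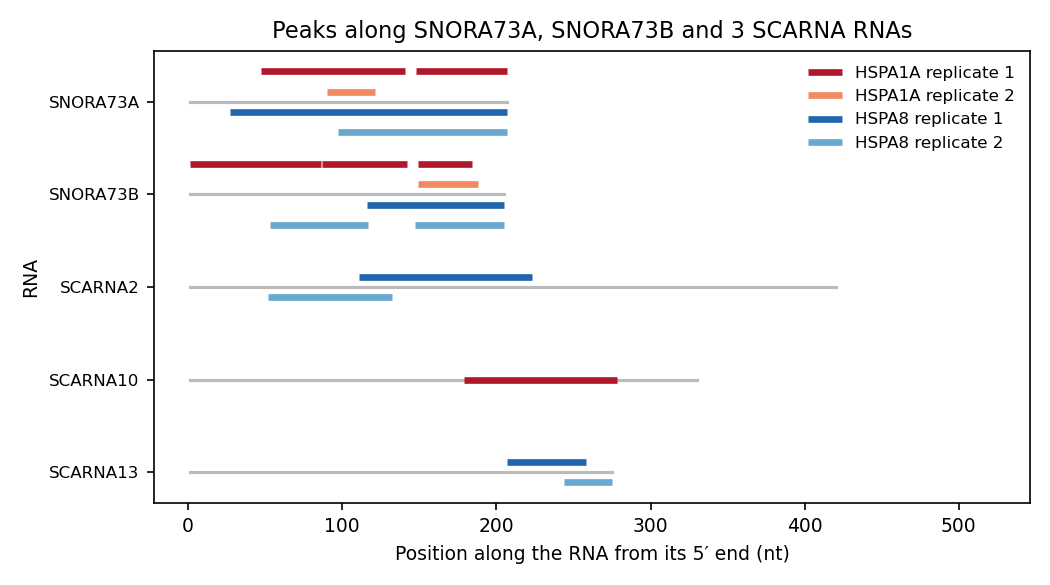
Peaks (coloured bars, 1 colour per list) along SNORA73A, SNORA73B and the 3 SCARNA RNAs (grey lines), in nt from the 5′ end, oriented by the strand of the peak. Bars of all 4 lists meet at bases 97 to 121 of SNORA73A and 149 to 184 of SNORA73B, while SCARNA2 and SCARNA13 carry bars of the HSPA8 lists alone.

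SNORA21 was the 1 SNORA gene with a peak in exactly 3 lists. It lies on chromosome 17 from 38852863 to 38852995 in RPL23, a ribosomal protein gene, and scored 5 and 9 in the HSPA1A lists and 9 in HSPA8 replicate 2, with no peak in HSPA8 replicate 1. The 3 peaks shared bases 86 to 133, the 3′ end of this 133 nt RNA. In HSPA1A replicate 1 the peak ran 4 bp past the annotated end.

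A further 6 SNORA genes (3.3% of 182) had a peak in HSPA1A replicate 1 and HSPA8 replicate 2 alone. This pattern was found at 0.0486% of all genes (29 of them) and 0.139% of genes of 100 to 500 bp. It was also found at 7 of 362 SNORD genes (1.93%), so it is not particular to SNORA genes. The 29 also count RPL27A, RPSA and EIF4A2, the hosts of SNORA3B, SNORA62 and SNORA81, through peaks on their small RNAs. SNORA51 lies in NOP56, which encodes a core protein of the box C/D particles, and scored 9 and 11 in HSPA1A replicate 1 and HSPA8 replicate 2. SNORA3B, in the ribosomal protein gene RPL27A, scored 6 and 12. SNORA19, in the translation initiation gene EIF3A, scored 6 and 8. All 3 scores were higher in the HSPA8 list, whose median score was 22 against 10. By percentile within the list, SNORA51 stood at 46.5 and 30.0 and SNORA19 at 30.0 and 19.4, lower in the HSPA8 list, and SNORA3B at 30.0 and 32.2.

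SNORA62, in the ribosomal protein gene RPSA, scored 11 and, in its better peak of HSPA8 replicate 2, 6. SNORA68 scored 6 in both lists. SNORA81 scored 16 and 5. In total, 9 SNORA genes had a peak in at least 2 lists, 4.95% of those annotated, against 2.19% of all genes and 5.01% of genes of 100 to 500 bp. The latter share is close to that of the SNORA genes.

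Within an RNA, peaks of these lists mostly lay on the same bases. Of the 9 SNORA genes with a peak in both HSPA1A replicate 1 and HSPA8 replicate 2, 8 shared bases, and in 7 the shared bases made up at least 90% of the smaller covered length. In SNORA62, SNORA68, SNORA73A and SNORA73B the covered lengths together exceeded the RNA, so some sharing was unavoidable. In SNORA68, for example, the peaks covered 116 and 96 bases of 133. The sharing that peak width alone would give was not tested. The SNORA51 peaks covered bases 16 to 69 and 18 to 69 of 132. The SNORA3B peaks covered 13 to 76 and 14 to 77 of 131. The SNORA19 peaks covered 30 to 76 and 49 to 76 of 128, ending at the same base. SNORA81 was the exception, with its peaks over bases 7 to 98 and 134 to 177 of 177, which are opposite ends of the RNA.

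The other SNORA members were found once, 13 of them in HSPA1A replicate 1 alone and 5 in HSPA8 replicate 2 alone. The highest score in this set was 10, at SNORA69 in RPL39 and SNORA7A in RPL32 (both HSPA1A replicate 1) and at SNORA70 in RPL10 (HSPA8 replicate 2), which are all ribosomal protein genes. The remaining genes with HSPA1A replicate 1 alone were SNORA12 in CWF19L1, SNORA17B in SNHG7, SNORA38 in PRRC2A, SNORA44 in SNHG12, SNORA48 and SNORA67 in EIF4A1, SNORA6 in RPSA, SNORA71B and SNORA71D in SNHG17, SNORA77B in RANBP1 and SNORA80E in KHDC4. Those with HSPA8 replicate 2 alone were SNORA14B in the mitochondrial import gene TOMM20, SNORA20 in the chaperonin gene TCP1, SNORA63 in EIF4A2 and SNORA64 in RPS2. Single-list scores ran from 5 to 10 in HSPA1A replicate 1 and from 5 to 10 in HSPA8 replicate 2.

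**Figure D3:**
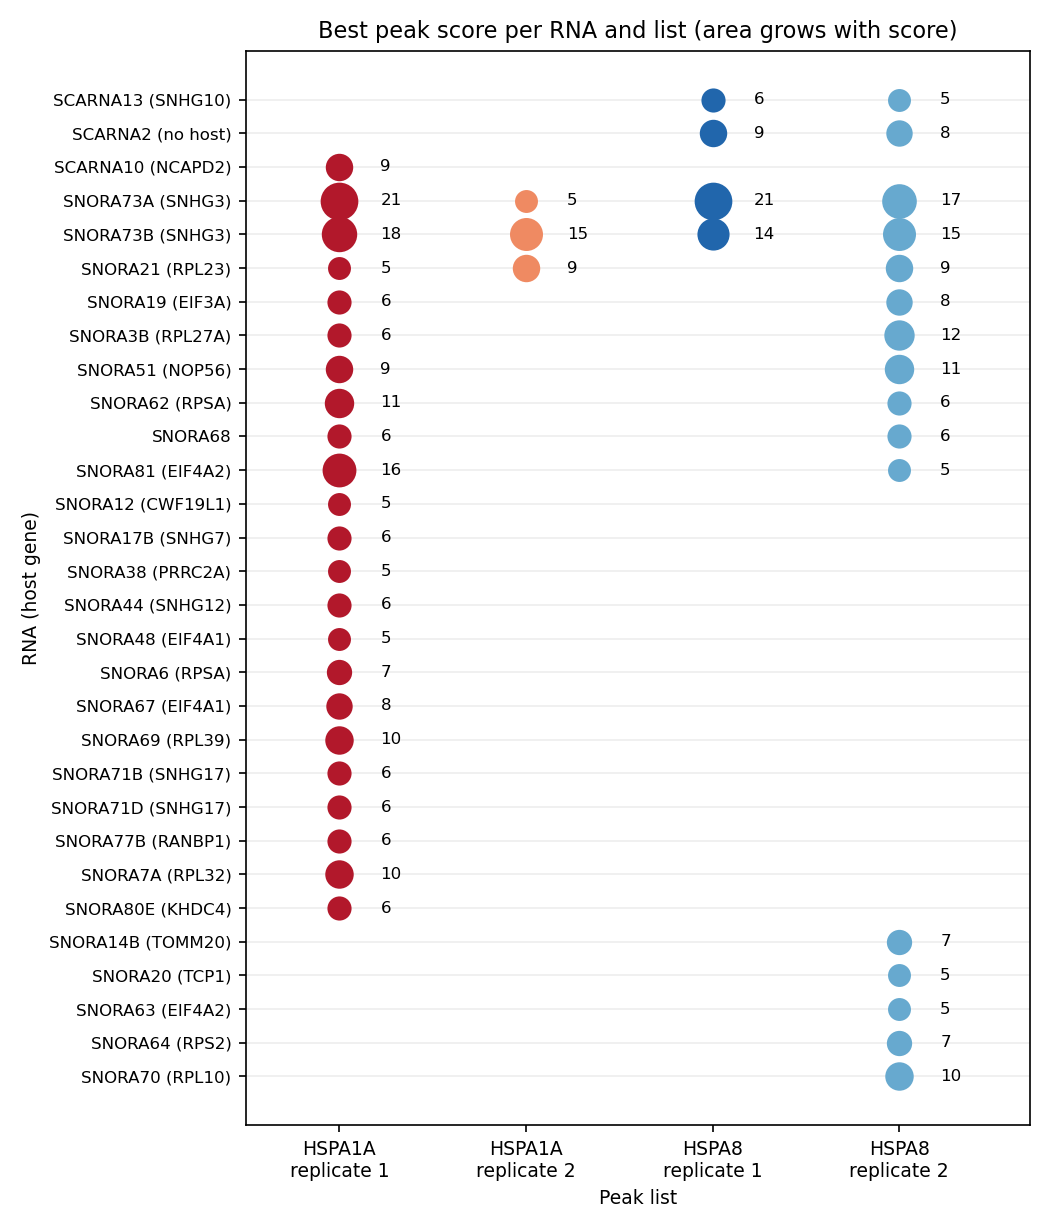
Best score of the authors' peaks (number and point area) for each of the 30 members, with the host gene in brackets where it is named, in each of the 4 lists; an empty cell is a list with no peak. SNORA73A and SNORA73B fill all 4 columns, 13 SNORA genes stand in the HSPA1A replicate 1 column alone and 5 in the HSPA8 replicate 2 column alone.

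The SCARNA family rests on 3 genes. With HSPA1A, 1 SCARNA gene had a peak in replicate 1 and 0 in replicate 2, and with HSPA8 2 genes had one in each replicate. As shares of the 29 annotated genes these were 3.45%, 0.0%, 6.9% and 6.9%. Genes of 100 to 500 bp had a peak in the same order at 5.97%, 4.23%, 4.7% and 3.65%. The gap to these short genes was not tested, and 1 gene makes up 3.45% of the 29. The HSPA1A lists averaged 0.5 ± 0.707 SCARNA genes (SD, n = 2) against 2.0 ± 0.0 (SD, n = 2) in the HSPA8 lists. The difference of -1.5 genes showed no overlap between baits (exact two-sided permutation test, p = 0.33, the smallest possible). None of these peaks reached the median score of its list, so the difference was 0.0 once peaks under that median were left out.

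SCARNA2 and SCARNA13 had a peak in both HSPA8 lists and neither HSPA1A list. Among all RefSeq genes 4 had this pattern (0.0067%), and among genes of 100 to 500 bp 2 did (0.0278%). Of the 4, 3 come from these loci, since SNHG10, the host of SCARNA13, was counted through the same peaks, and the other was MTND5P11. SCARNA2 guides ribose methylation of U2 spliceosomal RNA and is transcribed from its own promoter; it lies on chromosome 1 from 109100193 to 109100612 and no gene in the table encloses it. Its scores were 9 in HSPA8 replicate 1 and 8 in replicate 2. The peaks covered bases 111 to 223 and 52 to 132 of 420 and shared 22 bases, 111 to 132, or 27.2% of the smaller peak.

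SCARNA13, on chromosome 14 from 95533355 to 95533629, scored 6 in HSPA8 replicate 1 and 5 in replicate 2. Its peaks covered bases 207 to 258 and 244 to 275 of 275, the 3′ end of the RNA, and shared 15 bases. SCARNA10, on chromosome 12 from 6510222 to 6510551 in the condensin gene NCAPD2, scored 9 in HSPA1A replicate 1 and had no peak in the other lists. That peak covered bases 179 to 278 of 330. With scores of 5 to 9 all 5 SCARNA peaks ranked below the middle of their lists.

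By structural kind, 1 of 4 box C/D SCARNA genes (SCARNA2), 1 of 4 mixed SCARNA genes (SCARNA10) and 1 of the 21 other SCARNA genes (SCARNA13) had a peak. TERC, whose 3′ part carries an H/ACA domain with a Cajal body signal, had 0 peaks in each list. Depth being unknown, no limit on its binding follows from this. Of 6 genes for H/ACA proteins and their assembly factors (DKC1, NOP10, NHP2, GAR1, NAF1, SHQ1), SHQ1 had a peak, in HSPA8 replicate 1 alone and with a score of 5. Of 5 Cajal body and telomerase genes (COIL, WRAP53, TERT, SMN1, SMN2), 0 had a peak.

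The rule asked for 1 shared bp and not for where a peak begins or ends. Of the members' 51 peaks, 48 lay wholly inside the gene, and the other 3 ran 1 to 16 bp past an end, at SNORA44, SNORA21 and SNORA17B. Median peak width was 62 bp, with a range of 24 to 181, and a peak covered a median of 40.6% of its RNA. The 3′ edge fell exactly on the last base of the RNA in 12 peaks, and the 5′ edge fell on the first base in 1. The reference gives no strand for the small RNA genes themselves. For 40 of the peaks it gives the strand of the host, and all 40 lay on that strand.

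Many peaks stopped near the middle of a SNORA RNA or at its 3′ end. Outside SNORA73A and SNORA73B there were 34 peaks on 25 SNORA genes, of which 21 had their midpoint before the middle of the RNA (the 5′ side) and 13 after it (the 3′ side). Of the 21, 15 peaks on 12 genes ended between bases 69 and 80, an interval chosen after the values were seen. Base 76, picked from these same ends, was the last one in 7 peaks on 6 genes: SNORA17B, SNORA19, SNORA3B, SNORA63, SNORA71D and SNORA80E. These 6 RNAs come from different host genes on different chromosomes. Of the 13 peaks on the 3′ side, 7 on 5 genes reached the 3′ end of the RNA. SNORA68 was covered most fully outside SNORA73A, with bases 9 to 124 of 133 under the HSPA1A replicate 1 peak.

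**Figure D4:**
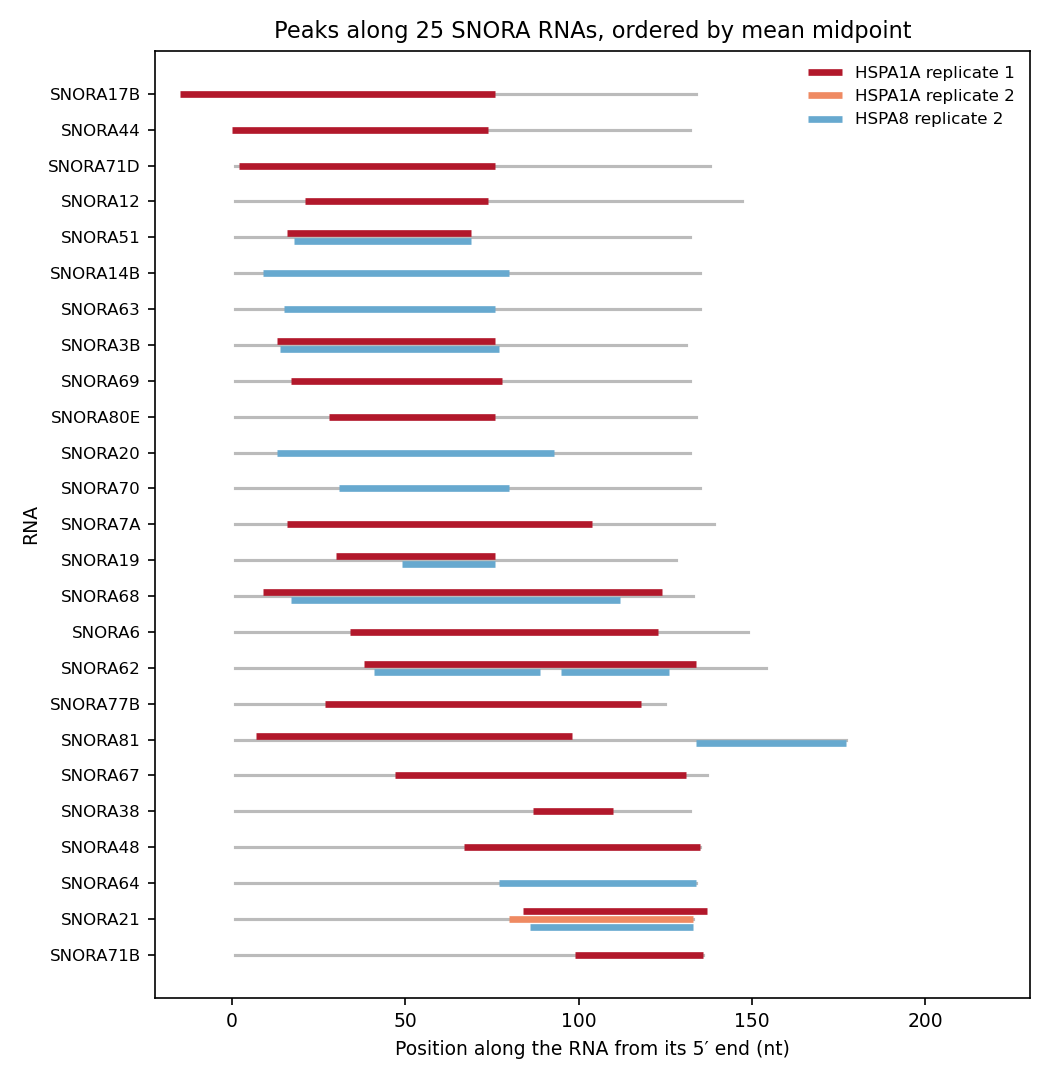
Peaks (coloured bars, 1 colour per list) along the 25 SNORA RNAs other than SNORA73A and SNORA73B (grey lines), in nt from the 5′ end, ordered by mean peak midpoint. Bars on the 5′ side mostly stop between bases 69 and 80, and those at the bottom run to the 3′ end.

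The position of peaks was compared between baits where the host gave the strand. Peaks with a midpoint on the 3′ side made up 72.7% ± 38.6 (SD, n = 2) of member peaks in the HSPA1A lists. In the HSPA8 lists they made up 69.2% ± 43.5 (SD, n = 2). The difference was 3.50 percentage points (exact two-sided permutation test, p = 1). With all 51 peaks oriented by their own strand, as for the positions above, the bait means were 73.1% and 56.9%, a difference of 16.1 points (exact two-sided permutation test, p = 0.667), with HSPA8 replicate 1 at 75.0% in place of 100%. By the host's strand, HSPA1A replicate 2 and HSPA8 replicate 1 had 2 and 3 peaks in all, so their shares of 100% rest on few peaks, and without either of HSPA1A replicate 2 or HSPA8 replicate 2 the direction turned, to -23.8 and -27.3.

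The scores placed most member peaks in the lower part of 3 of the 4 lists by their median, and near the middle in HSPA8 replicate 1. A member's score had a median percentile rank of 30.0 within its own list, and the highest was 65.9, at SNORA73A in HSPA1A replicate 1. The median rank was 30.0 and 37.6 for HSPA1A replicates 1 and 2, and 51.6 and 16.7 for HSPA8 replicates 1 and 2. With peaks at or above the list median alone, 6 of the 30 members remained. The highest SNORD peaks scored more, up to 330 in HSPA1A replicate 1 against 21 for SNORA in the same list. By median, SNORD peaks scored 9.0 and 9.0 in HSPA1A replicates 1 and 2, and 11.0 and 9.0 in HSPA8 replicates 1 and 2. SNORA peaks had medians of 6.0, 9.0, 17.5 and 7.5 in the same order, so neither family was higher by median in every list.

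**Figure D5:**
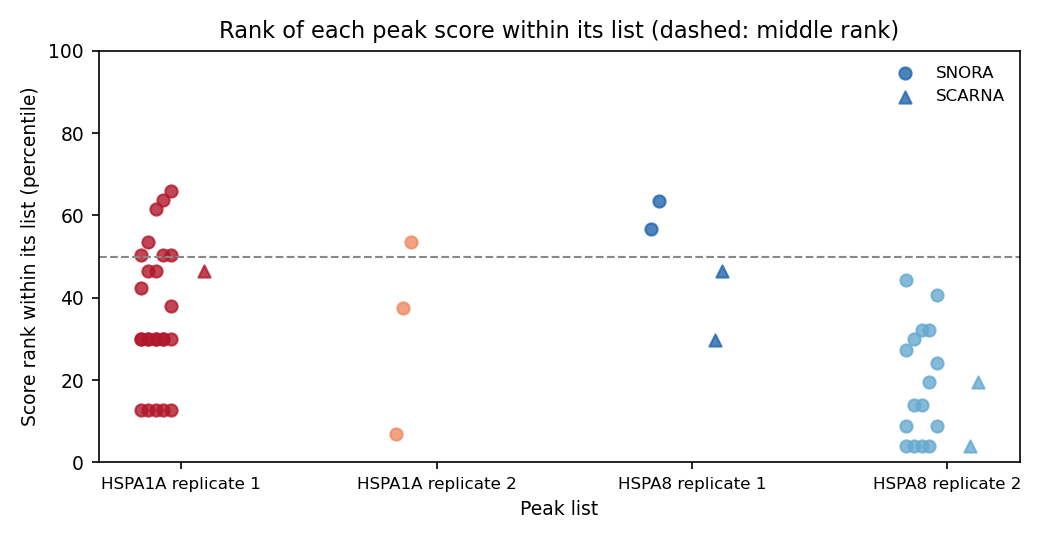
Percentile rank of the score of each member peak among all peaks of its list (vertical axis), for SNORA (circles) and SCARNA (triangles) peaks in the 4 lists; the dashed line is the middle rank. All peaks of HSPA8 replicate 2 lie below the line, and the highest point is SNORA73A in HSPA1A replicate 1 at 65.9.

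As a share of all peaks in a list, SNORA peaks took 0.911% (25 of 2744, 95% Wilson interval 0.618 to 1.34) and 0.146% (3 of 2059, 0.0496 to 0.428) for HSPA1A. For HSPA8 they took 0.0639% (2 of 3131, 0.0175 to 0.233) and 0.784% (16 of 2040, 0.483 to 1.27). These intervals cover counting error over peaks only and take each peak as independent, although the 25 and 16 peaks lie on 22 and 14 genes and the same peaks chose the members. For the families together the bait means were 0.547% ± 0.567 (SD, n = 2) and 0.505% ± 0.534 (SD, n = 2), a difference of 0.0416 percentage points that was smaller than the spread (exact two-sided permutation test, p = 0.667). It turned to -0.158 when peaks on scaffolds were left out of the total. With scores at or above the list median it was 0.234, and without SNORA73A and SNORA73B 0.00735.

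A host gene encloses 29 of the 30 members, and they fall into 24 hosts. Protein-coding genes host 22 members and non-coding SNHG genes host 7. Ribosomal protein genes host 9 members (30.0%) in 8 genes, where 9.0% of all annotated SNORA and SCARNA genes lie in such a host. SNHG genes (SNHG3, SNHG7, SNHG10, SNHG12 and SNHG17) host 23.3% of members and 11.8% of those annotated. Translation factor genes of the EIF series host 5 of the 30 members, in 3 genes, and 9 of the 211 annotated SNORA and SCARNA genes.

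Some hosts had peaks elsewhere. Outside small nucleolar and Cajal body RNA genes, 4 of the 24 hosts had a peak, 9 peaks in all, where 4.9% of all RefSeq genes had a peak of any kind in any list. Gene length and expression were not matched in this. Among them, RPS2 had 3 in HSPA1A replicate 1 and 2 in HSPA8 replicate 1, SNHG17 had 1 in each of these lists, and EIF3A had 1 in HSPA8 replicate 1. None of the 9 was in either list numbered 2, and HSPA8 replicate 1 had no peak on the SNORA or SCARNA RNAs of these hosts. Among annotated genes of the families without a peak, SNORA10 was the 1 with a peak within 100 bp, at 64 bp in HSPA1A replicate 1 and 85 bp in HSPA8 replicate 1, with scores of 6 and 7. By list, strand, score and distance these match RPS2 peaks already counted above, so they are not further peaks. The smallest overlap of a member peak was 24 bp, at SNORA38.

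Host promoters were read because many snoRNA host transcripts begin with a terminal oligopyrimidine tract, here defined as C at the annotated start and C or T at each of the next 4 bases. Of the 24 hosts, 19 are in the RefSeq promoter table. In 8 of these (42.1%) at least 1 listed start had this tract, against 5.14% of all 27305 genes in the table. Hosts of SNORA and SCARNA genes without a peak were not counted. Whether the tract marks hosts of members more than other snoRNA hosts was therefore not tested. The bases follow for 4 hosts with the tract and for SNHG3 without it, from 15 before the start to 15 from it on, with the first 5 transcribed bases in capitals.
RPSA, plus strand, chr3:39406705-39406734: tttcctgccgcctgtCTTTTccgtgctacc
RPL27A, plus strand, chr11:8682777-8682806: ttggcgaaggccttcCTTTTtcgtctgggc
EIF4A2, plus strand, chr3:186783562-186783591: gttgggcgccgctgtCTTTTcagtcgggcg
SNHG12, minus strand, chr1:28581859-28581888: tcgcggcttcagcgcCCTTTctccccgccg
SNHG3, plus strand, chr1:28505928-28505957: cctcagtgagtttctGATTCtctaactgcg
The tract is a match at annotated starts of GRCh38.p14, which can differ from the starts used in these cells.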

How the data were processed

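FLASH-seq peaks of HSPA1A and HSPA8 (2 lists each) were used as deposited, 1 list per replicate, with the authors' whole-number score per peak. The submitters' processing notes name Trim Galore 0.4.4, FastQC, STAR 2.6.0b, deepTools and the build GRCh38, without roles; random tags merged PCR duplicates, per the labels. The peak caller, its threshold and the handling of multiply mapped reads are not given in the sources used here.

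Peaks were intersected (1 bp, strand ignored, as in the rule) with RefSeq genes of GRCh38.p14 on 25 chromosomes. The planned strand match used the host's strand, since the table gives none for the small RNAs. Otherwise RNA positions follow the strand of the peak. The host is the shortest enclosing gene that is not a small RNA, LOC entries last. Baits were compared by exact permutation over the 4 lists. With no read counts, no count model was used. Named were all SCARNA members, TERC, SNORA genes in at least 2 lists, the 3 best-scoring SNORA genes of single lists, and hosts; the other members are listed by name as well. The host of 1 member is not reported here. The members and gene lists were chosen with earlier results of these data known. The overlap step was tested on 10 simulated lists. Software was pandas 2.3.3 and numpy 2.4.6 under Python 3.11.15, with scipy 1.17.1 for intervals and matplotlib 3.10.9 for plots.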

Additional observations from a re-analysis of the deposited data

How the results depend on the processing

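Of 46 values under other settings, 36 kept their direction or, for the number of members, stayed close to the main count. A further 7 reversed, and 3 moved to a difference of 0.0 or to far fewer members. The 36 include differences taken within same-numbered replicates (the replicate block). These equal the main differences by construction, so their direction could not change. Asking for most of the peak to lie in the gene left every value as it was. The 36 are therefore no measure of how firmly the results hold. Leaving out SNORA73A and SNORA73B and orientation by the strand of the peak were chosen after seeing the data. With the score at or above the list median, the members fell to 6 and the SCARNA difference to 0.0, since fewer peaks remain; the 3′ side could not be compared there, because HSPA8 replicate 2 had no member left. The share of peaks reversed to -0.158 without scaffolds, whose removal changes the HSPA8 totals. Leaving out each list in turn gave from -5.0 to 14.0 for the SNORA difference, from -2.0 to -1.0 for SCARNA, from -0.359 to 0.442 percentage points for the share of peaks, from -27.3 to 34.3 for the 3′ side and from 16 to 30 members, the fewest without HSPA1A replicate 1. Equal replicate numbers name no shared day or batch. Deviations of same-numbered lists correlated at -0.00249 over 2927 genes and at 0.289 over the 30 members. Both gene sets were chosen for having a peak in some list, which shapes these values. They therefore cannot decide whether same-numbered lists are paired. With the replicate block the differences were 4.5 SNORA genes, -1.5 SCARNA genes, 0.0416 and 3.50 percentage points (exact sign-flip permutation, p = 1, 0.5, 1 and 1; smallest possible 0.5). Unknown depth limits every count.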

Other observations

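Box C/D RNAs from the same host genes gave a further view of these loci. The member hosts also hold 7 SNORD genes in 4 hosts, and 4 of the 7 had a peak, where 67 of all 362 SNORD genes (18.5%) had one in any list; the hosts were chosen for holding a member. In NOP56, SNORD57 had a score of 11 in HSPA1A replicate 1, 7 in HSPA1A replicate 2 and 7 in HSPA8 replicate 1. SNORD56 had one in both lists numbered 2, with scores of 6 and 8, and SNORD110 in both lists numbered 1, with scores of 7 and 9. SNORA51 of the same host was found in HSPA1A replicate 1 and HSPA8 replicate 2. The 4 small RNAs of this host with a peak were thus each found in a different set of lists. In EIF4A2, SNORD2 had a peak in HSPA1A replicate 1 with a score of 7, the list that also held SNORA81, while SNORA63 of that host was found in HSPA8 replicate 2.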
